A study of Mus musculus with 661 samples.

Results

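Clusters E3 and E4 were the arteriolar-type endothelial clusters of a single-cell RNA sequencing study of the aging mouse bone marrow niche. Their members were the sorted endothelial cells whose label gave cluster 3 or 4 of the study's iterative clustering of endothelial cells. This rule found 119 cells, 60 in E3 and 59 in E4, of 307 endothelial cells and 661 cells in all. The clusters were built from the expression of these same genes, so every difference between clusters is a description of them and carries no test.

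Arterioles bring oxygenated blood into the marrow along the inner surface of bone, and their endothelium rests on a basement membrane wrapped by smooth muscle. Arterial identity is set up by VEGF and Notch signaling together with transcription factors such as Sox17, and it is marked by connexins, ephrin B2 and the Notch ligands Dll4 and Jag1. Sinusoids, the wide and thin-walled vessels that drain the marrow, instead carry scavenger receptors such as Stab2.

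Cells were sorted singly into plates from young and old wild-type C57BL/6 mice, and mice of both sexes were used in the study. Arteriolar endothelial cells (AEC) were sorted from collagenase-digested bone as CD31-positive, Sca-1-high and CD105-low cells lacking Ter119 and CD45. Sinusoidal endothelial cells (SEC) were sorted from digested central marrow as CD31-positive, Sca-1-low and CD105-high cells, also lacking Ter119 and CD45. The labels give age only as young or old, and the study's methods place old mice well past a year of age. E3 held 24 young and 34 old endosteal AEC-sorted cells and 2 old marrow SEC-sorted cells, and E4 held 26, 27 and 6.

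The labels name no mouse, so cells are not replicates, each group counts as 1 sample, and no p-value, standard error or standard deviation was computed. Cells were grouped by sort and library number into sets called library runs here. Endosteal cells came in 4 runs (A1 to A4) and marrow cells in 3 (S1 to S3), each with young and old cells. In runs A1 to A3 the numbers of other libraries lie between those of the young and the old cells. Runs S1 to S3 and A4 follow one another in number. Nothing in the numbers ties the young cells of a run to its old cells. To show how values varied, summed counts were also split by cluster, library run and age wherever at least 3 cells were present. These portions are called samples, and they are not replicates. They numbered 8 for E3, 8 for E4 and 5 for cluster E5 among endosteal cells, and 6 for cluster E7 among marrow cells. Levels are CPM, the counts of a gene per 1000000 nuclear counts of the cells summed. They are not scaled by gene length, so levels were not compared between genes. Nuclear counts per cell ran from 197124 to 810982 over E3 and E4, with a median of 443771 in E3, 435164 in E4, 265695 in E5 and 307689 in E7. At this similar depth E4 cells had more genes detected than E3 cells, with medians of 6448 and 5072. Genes were named by a rule of size, as the 10 with the largest log2 ratio in each direction among genes with at least 1000 counts that were at 10 CPM or more in at least 50% of cells of the higher side and moved in 1 direction in every run. Genes of lists chosen for the tissue were named as well. Reads carry no molecular identifiers, so the 95% intervals given in parentheses after folds and shares cover counting error only.

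All 4 markers given for arteriolar-type endothelium were well detected in both clusters. *Pecam1*, which encodes the adhesion protein CD31, was at 2192 to 3968 CPM (median 2637) over the 8 samples of E3 and at 948 to 2116 CPM (median 1608) over those of E4. *Ly6a*, which encodes Sca-1, was at 1086 to 2844 (median 1761) and 1029 to 2150.4 (median 1555) CPM, and *Cdh5*, the gene of VE-cadherin, at 465 to 726 (median 586) and 320.3 to 865 (median 608) CPM. *Sox17* was at 208 to 1264 (median 373) CPM in E3 and 217 to 752 (median 261) CPM in E4. Every E3 sample was above every E4 sample for *Pecam1*, while the 2 clusters overlapped for the other 3 markers. CD31 and Sca-1 were also part of the sort gate, which left *Cdh5* and *Sox17* as the markers not chosen by the sort. In the E7 samples, which hold only marrow-sorted cells, *Ly6a* was at 101 to 303 CPM (median 190.5) and *Sox17* at 12.2 to 179.7 CPM (median 47.8), both below every E3 and E4 sample. *Cdh5*, in contrast, was at a similar level in E7, at 550.4 to 743 CPM (median 635). Of 24 arterial identity genes, the median E3 cell carried 18 at 10 CPM or more and the median E4 cell 15, against 9 in E5 and 6 in E7. Of 21 sinusoidal and venous genes, the median cell carried 4 in E3, 8 in E4 and 19 in E7. The median E5 cell, mostly from the same sort, also carried all 4 given markers, so these markers alone did not set E3 and E4 apart from E5.

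E3 and E4 together made up 50 of 84 young and 61 of 82 old endosteal AEC-sorted cells, or 59.5% (48.3 to 70.1) and 74.4% (63.6 to 83.4) with exact Clopper-Pearson intervals. E3 was 28.6% (19.2 to 39.5) of young and 41.5% (30.7 to 52.9) of old AEC-sorted cells, and E4 was 26 of 84 young and 27 of 82 old cells, with intervals of 21.3 to 42% and 22.9 to 44.2%. The intervals of young and old overlapped for each cluster and for both together. Cells of 1 mouse are not independent, so the age difference in share was not tested. By run, E3 held 6 of 20 young and 13 of 20 old cells in A1, 3 of 20 and 7 of 20 in A2, 12 of 20 and 9 of 19 in A3, and 3 of 24 and 5 of 23 in A4. Old shares of E3 were the higher ones in runs A1, A2 and A4 and the lower one in A3, and E4 shares differed in direction between runs as well. Without run A3 the young share of E3 was 18.8%. Run A4 stood apart with the lowest shares of both clusters together, 7 of 24 young and 11 of 23 old cells, and without it the shares were 71.7% and 84.7%. In the marrow SEC sort, E3 and E4 were 0 of 70 young cells, which allows a share of up to 4.29% taken as 3 cells of the total and up to 5.13% by the exact interval, and 8 of 71 old cells, or 11.3% (4.99 to 21). Those 8 cells were 2 of E3 and 6 of E4.

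**Figure D1:**
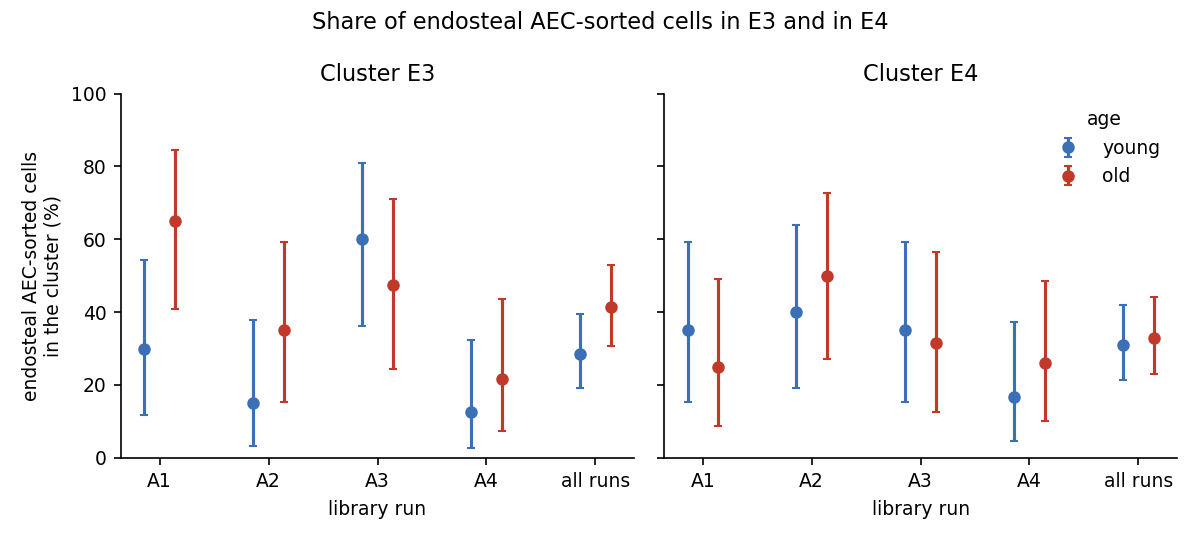
Share of endosteal AEC-sorted cells (y axis, percent) that fell in cluster E3 (left) and cluster E4 (right), by library run and over all runs (x axis), for young (blue) and old (red) cells, with bars for exact Clopper-Pearson intervals at 95%. Young and old intervals overlap in every run and over all runs, and run A4 has the lowest E3 and E4 shares among young cells, 12.5% and 16.7%.

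Set against cluster E7, the largest endothelial cluster with 105 cells and 1 of those rich in sinusoidal genes, E3 and E4 showed an arterial profile. Genes were tested where the cells of both sides together held 100 counts or more, spread over 5 cells or more. Of 14583 such genes, 2851 (19.6%) were at least 2-fold higher in E3 and E4, with 1 CPM added on the log2 scale, and 2334 (16.0%) were at least 2-fold lower. Of the E7 cells 103 came from the marrow SEC sort and 2 from the endosteal AEC sort. All of them were of runs S1 to S3 and A4, whose library numbers follow one another, while most E3 and E4 cells were of runs A1 to A3. Cluster, sort, tissue compartment and range of library numbers therefore cannot be told apart in this comparison. The exceptions are the few marrow-sorted cells of E3 and E4 described further on and their endosteal-sorted cells of run A4. With the added condition of 1 direction in every run that held at least 3 cells of each side, which only runs S2 and S3 met with 3 and 4 cells of E3 and E4, 761 (5.22%) genes were higher and 1717 (11.8%) lower. Among the genes of the naming rule were *Sparcl1*, *Fbln2*, *Fn1*, *Cdh13*, *Stmn2*, *Cav1*, *Gja4*, *P2ry2*, *Atp2a3* and *Ackr3* (log2 ratios 9.79 to 7.65) as higher in E3 and E4 and *Stab2*, *Ston2*, *Lipg*, *Adgrg6*, *Dclk1*, *Adamts5*, *Adh6b*, *Cdkl1* and *Serpina3f* (log2 ratios -9.07 to -6.84) as lower. Of these 19 genes, 17 belonged to the guide genes from which the study built its clusters.

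Arterial identity genes were higher in E3 and E4, as 21 of 24 were at least 2-fold higher and 0 lower, with a median log2 ratio of 4.99 beside 0.05 over all genes tested. *Gja4*, the gene of the gap junction protein connexin 37 of arterial endothelium, was at 158 to 817 CPM (median 294) over the 8 samples of E3 and E4 together and at 0 to 0.568 CPM (median 0.166) over the 6 of E7. *Gja5*, encoding connexin 40, was at 137 to 677 (median 254) and 0.269 to 1.39 (median 0.552) CPM, and *Efnb2*, the gene of the arterial marker ephrin B2, at 236 to 399 (median 291) and 0 to 33 (median 4.72) CPM. The E7 samples were thus near 0 for both connexins, and the groups did not overlap for any of the 3 genes. *Dll4*, a Notch ligand of arterial and sprouting endothelium, was present in both at 396 to 1470.4 (median 568) and 82.1 to 255 (median 165) CPM, without overlap, and was 3.79-fold (3.68 to 3.90) higher in E3 and E4. The Notch target gene *Hey1* was at 9.58 to 294 (median 199) CPM against 0 to 0.352 (median 0.0842) CPM. Over the Notch pathway list, 11 of 20 genes were at least 2-fold higher, among them *Jag1*, *Jag2*, *Notch4*, *Hes1* and *Hey2*, and 3 were lower, *Lfng*, *Maml3* and *Notch2*. The median of that list was 1.25.

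Genes of the vessel wall were higher as well, with 21 of 29 matrix genes at least 2-fold higher, 4 lower and a median log2 ratio of 3.24. *Fbln2*, whose product fibulin 2 binds elastic fibers and basement membrane, was at 1091 to 2158 CPM (median 1599) against 0.176 to 4.94 CPM (median 0.556) in E7. *Fn1*, the fibronectin gene, was at 443 to 6444 (median 1139) against 0.528 to 2.27 (median 1.21) CPM, and its highest sample, old cells of run A4, held 1 cell that gave 25% of all *Fn1* counts of the 2 clusters. *Sparcl1*, a secreted matrix-associated glycoprotein, was at 1207 to 2423 (median 1486) against 0 to 2.63 (median 0.426) CPM. E7 samples were at or near 0 for these 3 genes, far below the lowest E3 and E4 sample. The 8 marrow-sorted E3 and E4 cells, however, had *Sparcl1* at only 24.7 CPM, while their *Fbln2* was at 1885 CPM.

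Caveolae, flask-shaped pits of the cell surface that are common in arterial endothelium, were represented by *Cav1* at 1512 to 3774 (median 2643) CPM in E3 and E4 and 1.61 to 19.1 (median 3.52) CPM in E7, without overlap. Of 12 flow response and caveolae genes, 8 were at least 2-fold higher, including the flow-induced *Klf2* and *Klf4* and the nitric oxide synthase gene *Nos3*, and 1, *Thbd*, was lower. *Nos3* was at 244 to 666 CPM (median 339) against 48.7 to 60.8 CPM (median 54.9), with every E3 and E4 sample above every E7 sample. Among hemostasis genes 11 of 18 were higher and 6 lower. *Vwf*, the gene of von Willebrand factor, was at 193 to 1301 (median 593) CPM against 7.39 to 184 (median 11) CPM, and *Plat*, the gene of tissue plasminogen activator, at 87.8 to 433 (median 291) against 0.154 to 0.842 (median 0.532) CPM. All E3 and E4 samples were above all E7 samples for both genes. The log2 ratio of *Vwf* was 3.77, and 5.52 without run S1. Of 16 genes of factors that support blood cells, 11 were higher and 0 lower, with a median log2 ratio of 2.29. *Cxcl12*, the chemokine that retains stem cells in the marrow, was at 989 to 4351 (median 2269) CPM and overlapped E7 at 236 to 2505 (median 770.1) CPM, whereas *Kitl*, encoding stem cell factor, was at 315 to 1118 (median 421) against 3.50 to 41.6 (median 22) CPM, without overlap.

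Sinusoidal genes were the mirror image, with 0 of 20 at least 2-fold higher, 18 lower and a median log2 ratio of -4.20. The scavenger receptor gene *Stab2* was at 0 to 103 CPM (median 3.78) in E3 and E4 and at 7939 to 9922 CPM (median 8343) in E7, which put E3 and E4 lower by 574-fold (535 to 616). One young E4 cell of run A2 gave most of the *Stab2* counts of the 2 clusters, and the log2 ratio went from -9.07 to -10.40 without that run. *Lipg*, the gene of endothelial lipase, was at 0 to 17 (median 0) against 623 to 1165 (median 739.9) CPM, and the metalloproteinase gene *Adamts5* at 0 to 23.9 (median 5.88) against 657 to 2075 (median 1240.3) CPM. For these 3 genes most E3 and E4 samples were near 0 and no sample reached the E7 range. General endothelial genes did not follow either pattern, since only *Pecam1* of 17 was at least 2-fold higher, *Kdr* and *Robo4* were lower, and the median was -0.07.

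Cluster E5 was set beside E3 and E4 because it came mostly from the same sort, with 35 of its 37 cells from the endosteal AEC gate. Against E5, 3606 (26.5%) of 13584 genes tested were at least 2-fold higher in E3 and E4 and 1810 (13.3%) were lower, and with 1 direction in all 4 endosteal runs 2117 (15.6%) were higher and 229 (1.69%) lower. Without the top cell of each side, gene by gene, the count of lower genes was 848. The naming rule gave *Csrnp1*, *Nr4a3*, *Plcg2*, *Plat*, *Mir22hg*, *Car7*, *Kank2*, *Nr4a1*, *Gprc5a* and *Fgfr1* (log2 ratios 5.64 to 3.66) as higher in E3 and E4 and *Lpl*, *Fmo2*, *Sult1a1*, *Aqp7*, *Nrep*, *Itpr2*, *St8sia4*, *Ablim3*, *D8Ertd82e* and *Sh2d3c* (log2 ratios -4.95 to -2.15) as lower, and 10 of these 20 were guide genes. E5 cells had fewer counts per cell, and run A4 held 17 of the 37. The median log2 ratio over all genes tested was 0.60, 0.57, 1.77 and 0.03 in runs A1 to A4, and thinned to 100000 nuclear counts per cell the comparison gave 2457 (23.6%) genes higher and 1316 (12.6%) lower of 10423 tested. Immediate early genes, which cells switch on within minutes of a stimulus and also during dissociation, were higher in E3 and E4, as 20 of 25 were at least 2-fold higher, 0 were lower and 16 were higher in every run. Their median log2 ratio was 1.53, beside 0.16 over all genes tested, and by run it was 1.88, 2.57, 2.02 and 1.62 in A1 to A4. *Nr4a1*, an orphan nuclear receptor gene of this class, was at 978 to 3821 CPM (median 2657) over the 8 samples of E3 and E4 and at 4.67 to 140.2 CPM (median 34.2) over the 5 of E5. *Nr4a3* was at 56.6 to 292 (median 159.7) against 0 to 6.64 (median 0.760) CPM, *Csrnp1* at 94.1 to 409 (median 276) against 0 to 4.36 (median 1.52) CPM, and *Fos*, a subunit of the transcription factor AP-1, at 7768 to 15300.0 (median 11267) against 240.5 to 5263 (median 3989.5) CPM. Every E3 and E4 sample was above every E5 sample for all 4 genes, but the E5 samples hold 30 of its 37 cells. One young E5 cell of run A3, outside those samples, gave 65.6%, 63.6% and 54.8% of the *Nr4a1*, *Nr4a3* and *Csrnp1* counts of its cluster, at 5133, 117 and 96.4 CPM, within or above the E3 and E4 ranges, and an old cell of run A1, also outside them, had *Fos* at 38733 CPM. For *Nr4a1*, no E3 or E4 cell gave more than 4.68%, and the log2 ratio went from 3.79 to 5.23 without the top cell of each side. NF-kB targets, a set of inflammatory genes, were higher in 15 of 17 and lower in 0, among them *Cxcl1*, *Cxcl2*, *Il6*, *Icam1* and *Nfkbia*, with a median of 1.77.

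Arterial identity genes also separated E3 and E4 from E5, with 14 of 24 higher, 0 lower, 12 higher in every run and a median of 1.37. *Gja5* was at 137 to 677 (median 254) CPM in E3 and E4 and 0 to 2.42 (median 0.778) CPM in E5, and *Gja4* at 0 to 89.2 (median 2.28) CPM in E5, so both connexins were low or undetected there. A single old E5 cell of run A1, outside those samples, gave 98.5% of the *Gja5* counts of E5, and the log2 ratio was 2.35 with it and 7.23 without the top cell of each side. *Sox17*, at 249 to 616 (median 381) CPM in E5, overlapped with E3 and E4, as did *Dll4* at 161 to 557 (median 339) CPM. *Plat* was at 1.09 to 24.3 (median 3.02) CPM in E5 and below every E3 and E4 sample, and 11 of 18 hemostasis genes were higher in E3 and E4. Capillary genes ran the other way, as 8 of 12 were lower in E3 and E4, 0 were higher and the median was -1.27. *Fmo2*, a flavin-containing monooxygenase gene, was at 0 to 83.4 CPM (median 32.2) in E3 and E4 and at 109 to 1120.5 CPM (median 518) in E5, and *Sult1a1*, a sulfotransferase gene, was at 5.69 to 63.9 (median 41.4) against 107 to 658 (median 563) CPM. Both were higher in every E5 sample than in any E3 and E4 sample. *Lpl*, which encodes the lipoprotein lipase that capillaries display, overlapped at 0.227 to 179.9 (median 3.03) against 0.760 to 2571 (median 1336) CPM.

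E3 and E4 differed from each other in 1585 (12.2%) genes at least 2-fold higher and 2311 (17.7%) at least 2-fold lower in E3, of 13043 tested, of which 450 (3.45%) and 887 (6.80%) had that direction in all 4 endosteal runs. Far fewer genes kept the clusters apart in every sample, with 26 (0.199%) genes higher in all 8 E3 samples than in any of the 8 E4 samples and 15 (0.115%) lower. Both clusters had similar depth and came mostly from the endosteal sort (58 of 60 and 53 of 59 cells), but in unequal numbers by run, with 19, 10, 21 and 8 E3 cells and 12, 18, 13 and 10 E4 cells in A1 to A4. The naming rule gave *Gkn3*, *Igf2*, *Gper1*, *Apba1*, *Kcnn3*, *Lox*, *Kcnn4*, *Sulf1*, *Palld* and *L1cam* (log2 ratios 8.12 to 2.95) as higher in E3 and *Irx3*, *Tspan15*, *Nrp2*, *Cd300lg*, *Marcksl1*, *Tfpi*, *Exoc3l2*, *Spry1*, *Adamts4* and *Gpihbp1* (log2 ratios -5.46 to -3.40) as higher in E4, and 9 of these 20 were guide genes.

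Among the genes higher in E3 were *Gkn3*, *Igf2*, *Jag1*, *Alpl* and *Clu*. *Gkn3*, gastrokine 3, a known marker of arterial endothelium in mice, was at 171 to 905 CPM (median 438) over the E3 samples and at 0 to 9.74 CPM (median 0.126) over the E4 samples. It was at 10 CPM or more in 56.7% of E3 cells and 1.69% of E4 cells, so a sizeable share of E3 cells was under this level as well. *Igf2*, encoding insulin-like growth factor 2, was at 462 to 1864 CPM (median 980.2) against 0.419 to 80.7 CPM (median 1.58) and in 86.7% against 6.78% of cells, a ratio of 121-fold (107 to 138). One old E4 cell of run A1, which also carried 10 of 11 pericyte markers, gave 68% of E4 counts, and the log2 ratio rose from 6.78 to 8.06 without the top cell of each side. *Jag1* was at 622 to 2247 CPM (median 1518) against 89.2 to 579.6 CPM (median 180.4), or 6.31-fold (6.14 to 6.48) higher. E3 and E4 samples did not overlap for these 3 genes. *Alpl*, encoding tissue-nonspecific alkaline phosphatase, was at 749 to 1668 (median 1386) against 0.581 to 561 (median 211) CPM, and *Clu*, encoding the chaperone clusterin and named here after its values were seen, at 1925 to 6040.3 (median 3585) against 80.5 to 1823 (median 559) CPM. Both genes were also without overlap. *Gja5* was at 113 to 1144 (median 404) against 0.464 to 319 (median 34.2) CPM, the Notch target *Hey1* at 18.4 to 754 (median 257) against 3.54 to 151 (median 101) CPM and the semaphorin gene *Sema3g* at 747 to 1541 (median 1276) against 82.5 to 1055 (median 614) CPM. For these 3 genes the E3 medians were the higher ones but the samples overlapped. Over the arterial list 11 of 24 genes were at least 2-fold higher in E3 and 2, *Cxcr4* and *Unc5b*, were lower, with a median log2 ratio of 0.55 beside -0.07 over all genes tested. *Efnb2*, *Dll4*, *Gja4* and *Sox17* were not among them, with log2 ratios of -0.03, -0.33, 0.35 and 0.03, and *Gja4* fell to -0.26 without run A3.

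The naming rule also gave 2 genes of calcium-activated potassium channels as higher in E3, and other potassium channels were not compared as a list. *Kcnn4*, which encodes an intermediate-conductance calcium-activated channel, was at 105 to 298 CPM (median 264) against 0 to 70.7 CPM (median 11.5), with no overlap. *Kcnn3*, the small-conductance channel gene, was at 2.21 to 108 (median 101) against 0 to 19.7 (median 3.55) CPM and overlapped only in its lowest E3 sample, young cells of run A4. *Gper1*, encoding a membrane estrogen receptor, was at 124 to 1167 (median 330.3) against 0 to 24.9 (median 0.265) CPM, and the protease-activated receptor gene *F2rl1* at 2.21 to 94.2 (median 47.1) against 0 to 0.581 (median 0) CPM. Neither receptor gene overlapped between the clusters, but the nearest *F2rl1* samples, at 2.21 and 0.581 CPM, were near 0 and rested on few counts. *Cav1* was high in both and higher in all E3 samples, at 2575 to 5832 (median 3840.0) against 780.2 to 2110.3 (median 1522) CPM, or 2.46-fold (2.43 to 2.49). Among genes of vascular tone and hemostasis, *Edn1*, encoding the vasoconstrictor endothelin 1, was at 156 to 558 (median 351) against 3.25 to 536 (median 51.9) CPM, and *Ace*, encoding angiotensin-converting enzyme, at 234 to 1087 (median 906) against 144 to 408 (median 183) CPM. *Ednrb*, an endothelin receptor gene, had the opposite direction at 6.53 to 238 (median 75) against 87.6 to 425 (median 263) CPM, and all 3 genes overlapped between the clusters. In all 4 of 18 genes of that list were at least 2-fold higher in E3 and 6 lower, where 12.2% and 17.7% of all genes tested were so.

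Neither direction prevailed among matrix genes, with 8 of 28 higher in E3, 10 lower and a median of 0.11. Higher in E3 were *Eln*, *Fbln2*, *Lox*, *Mgp*, *Htra1*, *Sulf1*, *Col5a2* and *Col8a1*, while *Fbn1*, *Fbln5* and *Emilin1*, further genes of elastic fibers, were within 2-fold. Lower in E3 were *Col4a1*, *Col4a2*, *Hspg2*, *Lamb1*, *Lamc1*, *Nid1*, *Nid2*, *Col15a1*, *Sparc* and *Loxl2*, while *Lama3*, *Lama4*, *Lama5*, *Lamb2* and *Col18a1*, further genes of the basement membrane, were within 2-fold. The log2 ratio of *Lama4* went from -0.84 to -1.66 without run A1, past 2-fold. *Fbln2* was at 1661 to 2957 CPM (median 2008) in E3 and at 555 to 1608 CPM (median 996) in E4, with no overlap, and *Lox*, encoding lysyl oxidase, was at 14.7 to 176 (median 77) against 0 to 7.85 (median 0.358) CPM, also apart. *Eln*, encoding elastin, was at 85.2 to 525 (median 284) against 33.4 to 319 (median 88.9) CPM, and *Mgp*, encoding an inhibitor of calcification, at 0 to 3234 (median 953) against 7.33 to 1346 (median 61) CPM. The collagen IV genes were at 156 to 983 (median 319) against 218 to 2327 (median 1190.2) CPM for *Col4a1* and 41.1 to 1062 (median 257) against 371 to 2764 (median 1202) CPM for *Col4a2*. Samples overlapped for *Eln*, *Mgp* and both collagen IV genes, with E4 medians above E3 medians for the collagens and below them for *Eln* and *Mgp*. Their log2 ratios also moved with single runs, *Mgp* from 2.72 to 4.14 and *Eln* from 1.42 to 2.30 without A1, and *Col4a2* from -2.02 to -1.35 without A3.

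Genes of capillaries and of the venous side were higher in E4 than in E3. Other clusters carried the capillary genes as well, with a median of 8 of 12 per cell in E4, 8 in E5 and 8 in E7, against 4 in E3. Of 11 capillary and tip cell genes 0 were at least 2-fold higher in E3 and 9 lower, 8 of them in every run, and the median log2 ratio was -3.22, with -2.55, -3.74, -3.21 and -2.74 in runs A1 to A4. *Plvap*, which forms the diaphragms of fenestrated endothelium, was at 14 to 1054 CPM (median 28.2) in E3 and at 1023 to 3542 CPM (median 2514) in E4. The young E3 sample of run A1 just exceeded the lowest E4 sample, so the clusters overlapped, although the E3 median was far below every E4 sample. *Cd300lg*, encoding the nepmucin receptor of capillaries, was at 0.384 to 170.0 (median 20.2) against 99.4 to 911 (median 529.6) CPM and in 8.33% against 86.4% of cells. *Gpihbp1*, which anchors lipoprotein lipase on capillaries, was at 1.36 to 421 (median 52.8) against 154 to 924 (median 573) CPM, and *Kdr*, the gene of VEGF receptor 2, at 19.8 to 568 (median 175) against 485 to 1441 (median 864) CPM. E4 was the higher cluster for each, and the overlap came from the young E3 sample of run A4. *Nrp2*, a semaphorin and VEGF-C coreceptor gene of veins and lymphatics, was at 0.319 to 46.9 CPM (median 6.43) against 149 to 523 CPM (median 321), or 26.6-fold (23.8 to 29.7) lower in E3, and its log2 ratio went from -4.63 to -5.24 without the top cell of each side. The homeobox gene *Irx3* was at 0 to 19.5 (median 1.32) against 58.4 to 248 (median 117) CPM and in 3.33% against 57.6% of cells. E3 and E4 samples did not overlap for *Nrp2* or *Irx3*.

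Sinusoidal and venous genes had the same direction as the capillary genes, with 2 of 20 higher in E3, 12 lower and a median of -2.37, which was -3.87 without run A1 and -3.52 without the top cell of each side. *Fcgr2b*, an inhibitory Fc receptor gene of sinusoids, was at 0 to 0.186 CPM (median 0) in E3 and at 0.821 to 50.03 CPM (median 11.4) in E4, without overlap, against 72.3 to 523 CPM (median 224) in E7. The nearest samples, at 0.186 and 0.821 CPM, were near 0 and rested on few counts, so that separation is not firm. Of the 11 old endosteal cells of E3 and E4 in run A4, 1 held the gene at 10 CPM or more. *Tfpi*, encoding tissue factor pathway inhibitor, was at 0 to 56.3 (median 1.41) against 45.2 to 329 (median 198) CPM, overlapping in the same young E3 sample of run A4. The E4 samples of *Fcgr2b* lay under the E7 range, and *Stab2* was at 0 to 145 CPM (median 3.00) in E4. *Cxcl12* was at 487 to 3384 CPM (median 1099.7) in E3 and 1955 to 6354 CPM (median 2864) in E4, so the E4 median was the higher one and samples overlapped. Immediate early genes did not separate the clusters, with 0 of 25 at least 2-fold higher, 2 lower and a median of -0.02. Of the 17 NF-kB targets 2 were higher in E3 and 8 lower, 3 of these in every run.

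**Figure D2:**
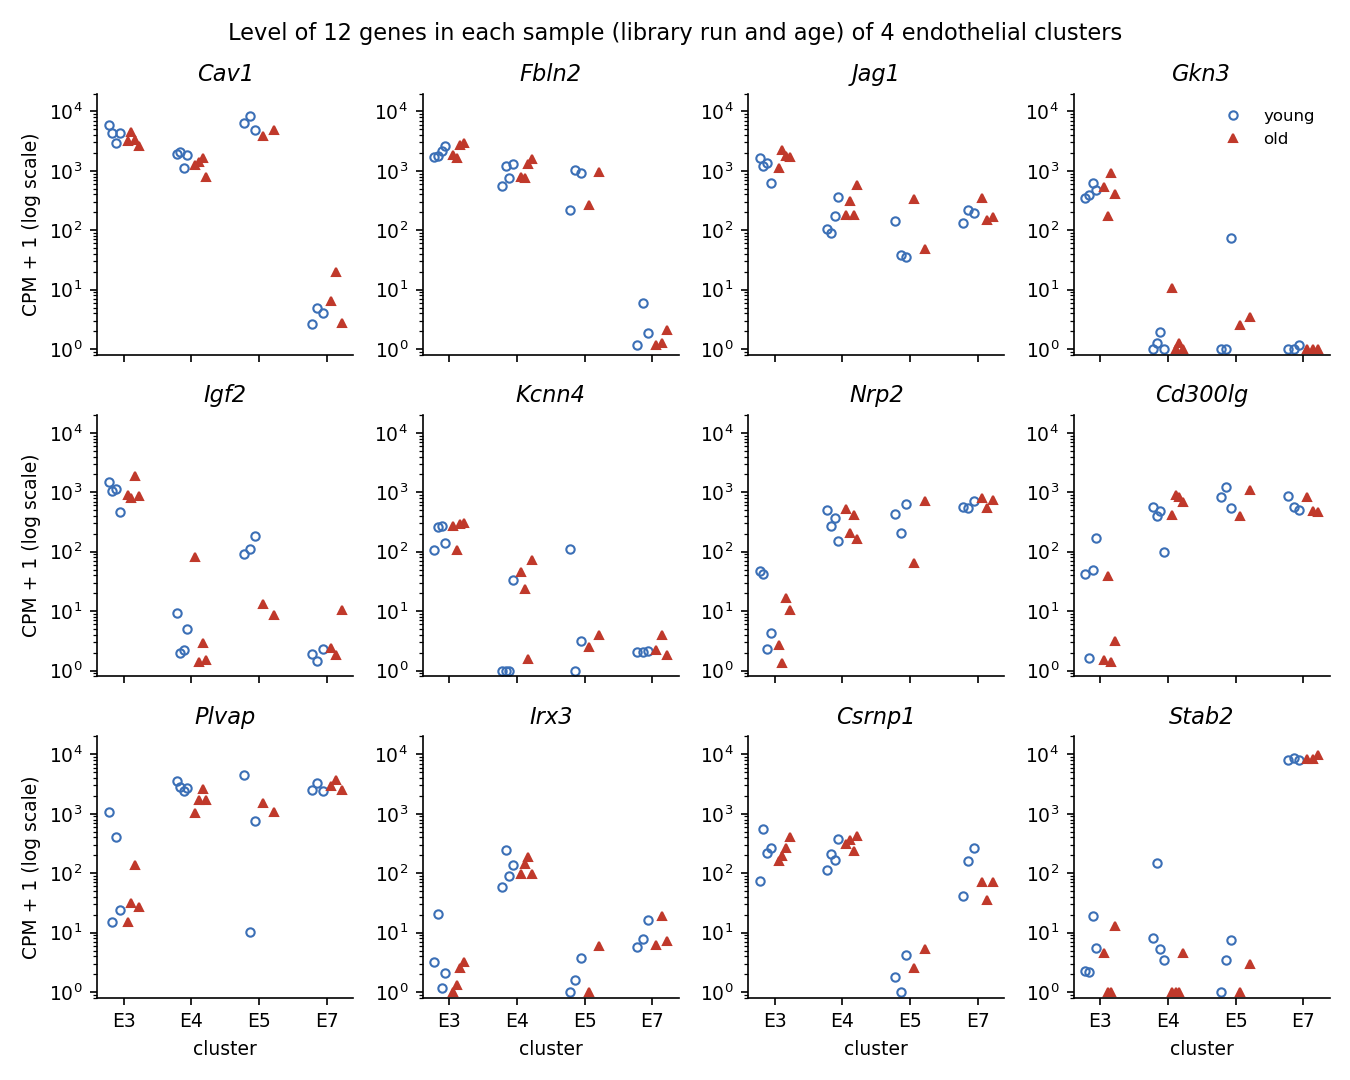
Level of 12 genes, as CPM plus 1 on a log scale (y axis), in each sample of clusters E3, E4, E5 and E7 (x axis), where a point is the summed cells of 1 library run and age, young as open blue circles and old as filled red triangles. E3 samples lie above E4 samples for *Gkn3* (lowest E3 sample 171 CPM, highest E4 sample 9.74 CPM) and below them for *Nrp2* and *Irx3*, and E7 samples are the high ones for *Stab2* and the low ones for *Cav1*.

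Markers of other cell types were also unevenly spread over the clusters, and their part in the differences was not tested beyond leaving out the cells named here. At least 3 mesenchymal, pericyte and smooth muscle, or hematopoietic markers at 10 CPM or more were carried by 11 of 60 E3 cells and 19 of 59 E4 cells, against 15 of 37 in E5 and 30 of 105 in E7. After the data were seen, 6 cells of E3 and E4 were set apart because they carried no general endothelial marker or at least 8 mesenchymal, pericyte and smooth muscle, or proliferation markers. Over E7, all 9 pericyte and smooth muscle markers tested were at least 2-fold higher in E3 and E4, with a median log2 ratio of 3.31 (2.32 without the 6 cells set apart) and sums of 500.4 against 18 CPM. Over E5, the median was 2.79 for these markers (4.13 without run A4) and 1.78 for mesenchymal ones, or 0.85 and 0.50 without those cells. Over E7 the mesenchymal median was 0.36, and -0.81 without them. The 13 mesenchymal markers summed to 546 to 3513 CPM over the E3 samples and 1986 to 8124 over the E4 samples, most of it *Cxcl12*, which endothelium also makes. Of 12 that could be tested, 11 were at least 2-fold lower in E3. The median log2 ratio of E3 over E4 was -2.58, or -1.16 without the 6 cells set apart and -3.35 without run A1. The 11 pericyte and smooth muscle markers summed to 12.1 to 2708 CPM in E3 samples and 18.9 to 2826 in E4 samples, led by *Acta2* in E3 and *Rgs5* in E4. The highest E3 sample, young cells of run A2, held 1 cell with 8 of these markers, and the highest E4 sample, young cells of run A1, held 1 with 10. The part of these cells in the sums was not tested. The 17 hematopoietic markers summed to 1.91 to 29.8 CPM in E3 and 19.7 to 100.3 in E4, led by *S100a9* in E3 and by *Fcer1g* at 44.8 CPM in E4, with 2 of the 17 at 0 in E3 and 0 of 17 at 0 in E4, and the pan-leukocyte gene *Ptprc* was at 0.370 CPM in E3 and 0.342 in E4. A single old E4 cell of run A4 carried 0 of 17 general endothelial markers and 1 of the 4 given markers, *Ly6a*, and its most abundant gene was the lubricin gene *Prg4* at 103979 CPM. This cell gave 98.7% of the *Prg4* counts of old E3 and E4 cells.

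Age was not part of the rule that chose the cells, but with no mouse named the old and young cells of E3 and E4 still form 1 sample a side. Old cells held 36 of E3 and 33 of E4, the 8 marrow-sorted cells included, and young cells 24 and 26. Since the mix of the clusters differed by run, log2 ratios within each cluster are given as well for some of the genes. For the other genes the part of this mix was not tested. Values by run are of endosteal cells. Of 13043 genes tested, 1580 (12.1%) were at least 2-fold higher in old cells and 1478 (11.3%) lower, and 427 (3.27%) and 306 (2.35%) kept that direction in all 4 runs. Every old sample was above every young sample for 198 (1.52%) genes and below it for 157 (1.20%), with 4 samples a side. Genes that do not change with age also separate fully at times when each side has so few samples, so separation in every sample is given as a description and not as a sign of change. The naming rule gave *Csf2rb2*, *Gm15587*, *Timm17a*, *Arrdc4*, *Cdk9*, *Cirbp*, *Myd88*, *AA474408*, *Cx3cl1* and *H2-Q7* (log2 ratios 2.97 to 1.25) as higher in old and *Wdfy1*, *Fancc*, *Auts2*, *Rab21*, *Odc1*, *9830144P21Rik*, *Rnf144a*, *9530068E07Rik*, *Hiatl1* and *Tspan5* (log2 ratios -1.92 to -1.34) as lower, and none of these 20 was a guide gene. Leaving out 1 run ended the 2-fold calls of *Arrdc4* and *Myd88* (log2 ratios 0.74 and 0.99 without A1) and of *AA474408* (0.39 without A3). By age, 0 of 17 general endothelial genes were 2-fold higher or lower, and of 24 arterial genes only *Cxcr4* and *Dkk2* were lower and none was higher (*Dkk2* went from -1.77 to 0.14 on the log2 scale without run A3), with a median of 0.26 beside 0.01 over all genes tested. The median number of arterial genes carried was 18 in young and 18 in old E3 cells, and 13 and 16 in E4 cells. Interferon response genes were likewise within 2-fold in all 16 cases, and of 25 immediate early genes only *Egr2* was lower.

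*Csf2rb2* changed most by the naming rule. It encodes a beta subunit of cytokine receptors of the IL-3 family. In samples of runs A1 to A4 it was at 12.8, 45, 52.4 and 41 CPM in young and 186, 277, 476 and 215 CPM in old cells, and over all cells it was 8.00-fold (7.46 to 8.58) higher in old. All old samples were above all young samples, and the log2 ratio was 2.51 within E3 and 3.54 within E4. The paralog and neighbor *Csf2rb*, named after its values were seen (chr15:78325752-78353847, beside *Csf2rb2* at chr15:78282507-78305721 in GRCm38) was at 147, 41.2, 114 and 206 CPM in young and 169, 229, 121 and 173 CPM in old samples. These values overlapped, and because the 2 genes are near-identical copies the split of reads between them is uncertain. *Csf2ra*, the alpha chain gene of the GM-CSF receptor, was near 0 with a highest sample of 5.99 CPM.

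Of 13 antigen presentation genes 4, all of the class II pathway, were at least 2-fold higher in old cells, and the list median was 0.21. *Cd74*, encoding the invariant chain that guides class II molecules, was at 0.610, 96.9, 12.6 and 201 CPM in young and 346, 224, 308 and 588 CPM in old samples of runs A1 to A4, or 6.46-fold (6.06 to 6.88) higher. Old samples were all above young ones, although 1 young cell gave 50.1% of young counts, and the log2 ratio went from 2.67 to 3.38 without run A2. It was 2.43 within E4 and 4.67 within E3, where 1 old cell gave 84.1% of old counts. *H2-Ab1* was at 152, 96.5, 3.58 and 307 CPM in young and 176, 125, 381 and 298 CPM in old samples, *H2-Aa* at 76.4, 30.2, 0 and 205 and 109.8, 129, 124 and 123 CPM, and *H2-Eb1* at 10.7, 65.5, 0 and 0 and 29.4, 31.6, 70.3 and 79.3 CPM. Old and young samples overlapped for these 3 class II chain genes, which lie side by side at chr17:34257689-34269419, chr17:34282744-34287823 and chr17:34305867-34316674, and each was higher in 3 of 4 runs. Their folds were 2.44-fold (2.33 to 2.56), 2.36-fold (2.21 to 2.53) and 2.47-fold (2.22 to 2.76), or log2 ratios of 1.28, 1.22 and 1.26 that fell to 0.21, 0.50 and 0.29 without run A3, all under 2-fold. *H2-Eb1* also moved the other way, to 3.41 without run A2 and 3.08 without the top cell of each side. *Cd74* and the class II chain genes are also among the most abundant products of B cells and macrophages. Both sorts excluded cells carrying CD45. Hematopoietic markers summed to 27.9, 23.7, 39.8 and 27.8 CPM in young and 23.7, 38.8, 36.4 and 23.1 CPM in old samples, so the endosteal samples overlapped between ages. Over all cells the sum was 31.4 CPM in young and 45.4 CPM in old, and cells with at least 3 of these markers were 0 of 50 young and 3 of 69 old. *Ptprc* was near 0, *Cd79a*, a marker of B cells, was at 2.02 CPM in young and 4.79 in old E4 cells, *Lyz2*, a marker of macrophages, was at 1.09 and 15.3 CPM, and their part in the class II values was not tested. The 8 marrow-sorted old cells, 2 of the 3 cells with hematopoietic markers among them, had *Lyz2* at 89 CPM and *Cd74* at 21.7 CPM, the latter at 10 CPM or more in 1 of the 8. *H2-Q7*, a class I gene of a multigene family whose members share reads, was at 33.9, 89.4, 59.8 and 20.2 CPM in young and 142, 93.7, 187 and 112 CPM in old samples, and its neighbor *H2-Q6*, named after its values were seen, at 118, 169, 251 and 309.9 and 686, 304, 363 and 381 CPM. All old samples were above all young ones for *H2-Q7*, by a small margin in run A2 (89.4 and 93.7 CPM), while the samples of *H2-Q6* overlapped.

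Further genes with all old samples above the young ones included *Cx3cl1*, the gene of fractalkine, a membrane-bound chemokine of endothelium, at 75.4, 54.1, 154 and 53.7 CPM in young and 286, 168, 256 and 254 CPM in old samples, or 2.46-fold (2.34 to 2.58). The log2 ratio of *Cx3cl1* was 1.42 within E3 and 1.09 within E4. *Cdk9*, a kinase gene of transcription elongation, was at 47.1, 64.2, 57.4 and 3.77 CPM in young and 83.2, 205, 134 and 100.3 CPM in old samples. *Fbln5*, encoding an organizer of elastic fibers, was at 516, 836, 1196 and 1181 and 1416, 1512, 1459 and 1203 CPM, and *Nos3* at 293, 244, 335 and 298 and 425, 342, 343 and 666 CPM. The last 2 were apart in all samples but within 2-fold over all cells, at 1.66-fold (1.63 to 1.69) and 1.38-fold (1.34 to 1.42), and by small margins in the nearest samples. *Fbln5* was past 2-fold within E4, at a log2 ratio of 1.24, and at 0.33 within E3. *Myd88*, encoding an adaptor of toll-like and IL-1 receptors, was at 60.3, 79.2, 57.6 and 135 CPM in young and 268, 216, 95.5 and 214 CPM in old samples, higher in old in all 4 runs with samples overlapping between runs. *Jag1* was higher in old E4 cells, with a log2 ratio of 1.12 and the same direction in all 4 runs, and at 0.21 in E3. The difference between the clusters was not tested.

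Genes lower in every old sample included *Fancc*, a DNA repair gene of the Fanconi anemia pathway, at 173, 56.7, 84.9 and 55.1 CPM in young and 26.7, 17.1, 22.8 and 30.8 CPM in old samples, or 3.77-fold (3.48 to 4.09) lower. *Rab21*, a small GTPase gene of endosomes, was at 75.8, 57.8, 46.9 and 94.2 and 34.9, 24.4, 9.65 and 9.88 CPM, and *Tspan5*, a tetraspanin gene that acts on the protease of Notch, at 98.9, 68.5, 79.9 and 88.5 and 44.1, 19.98, 33.8 and 47.9 CPM. No old sample reached the young range for any of these 3 genes. Within E3 and within E4 the log2 ratios were -2.39 and -1.47 for *Fancc*, -2.29 and -1.09 for *Rab21*, and -2.02 and -0.63 for *Tspan5*. *Odc1*, the first enzyme of polyamine synthesis, was at 132, 117, 38.5 and 108 CPM in young and 23.4, 36.7, 28.7 and 50.3 CPM in old samples, lower in all 4 runs with overlap between runs. *Plvap* was at 2360.1, 1997, 1159 and 1542 CPM in young and 285, 1052, 1153 and 1038 CPM in old samples, and *Ednrb* at 213, 302, 188 and 287 and 31.6, 145, 145 and 127 CPM. Both were lower in all old samples, *Plvap* by less than 2-fold over all cells at 1.82-fold (1.79 to 1.85) and *Ednrb* by 2.18-fold (2.09 to 2.28). For *Plvap* the nearest samples, 1159 CPM in young and 1153 CPM in old cells of run A3, were nearly level. Both genes were also higher in E4 than in E3, and the old sample of run A1, with 13 E3 and 5 E4 cells, was the lowest. Within E4, where most of their counts lay, the log2 ratios were -0.59 and -0.82, each lower in 3 of 4 runs. Of 20 sinusoidal and venous genes, 9 were at least 2-fold lower in old cells, 1 was higher and the median was -0.57, but only *Gpr182* among the lower ones was lower in every run. For *Ackr1*, *Sele*, *Vcam1* and *Stab2* a single young cell gave 88.5%, 65.2%, 64% and 74.7% of young counts. The 1 gene that was higher, *Fcgr2b*, was at 0.763, 2.498, 3.46 and 0.471 CPM in young and 3.74, 23.6, 14.9 and 29.6 CPM in old samples, without overlap, nearly all of it in E4 cells. Its young samples were near 0, and the nearest samples, at 3.46 and 3.74 CPM, were close. In the old sample of run A4, 1 of 11 cells held the gene at 10 CPM or more.

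**Figure D3:**
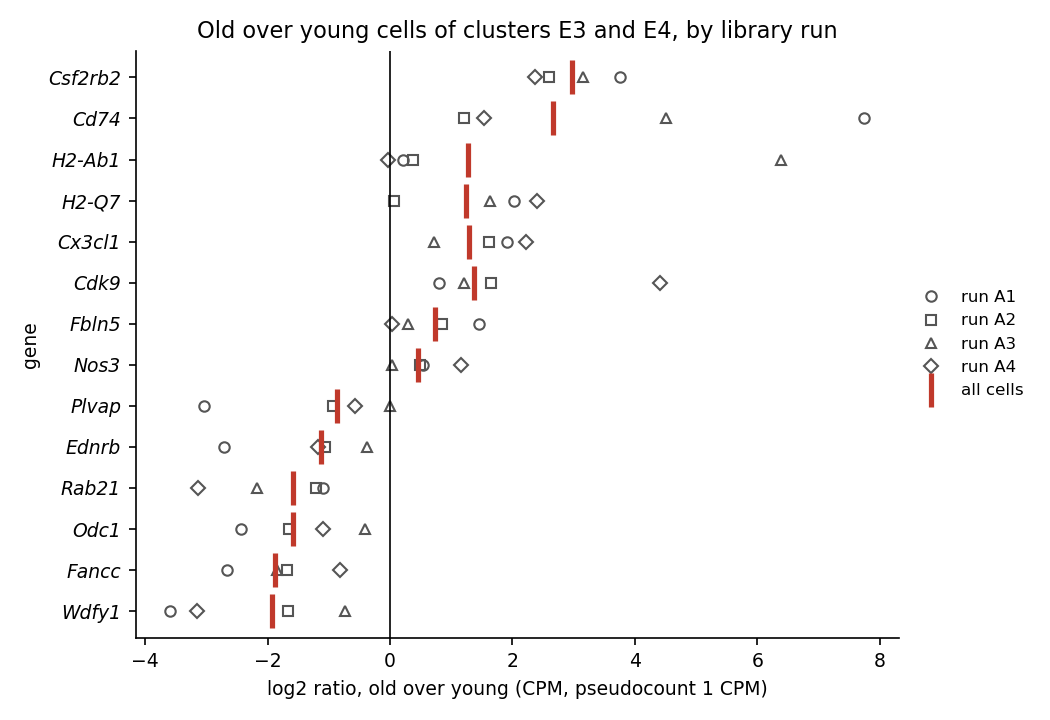
Log2 ratio of old over young cells of clusters E3 and E4 (x axis, CPM with 1 CPM added) for 14 genes (y axis), with an open gray symbol for each library run and a red bar for all cells together. All 4 runs lie on the same side of 0 for *Csf2rb2* and *Fancc*, while *H2-Ab1* has 1 run near 0, at -0.04.

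Of 28 matrix genes, *Col4a1*, *Col4a2*, *Col15a1* and *Lamb1* were at least 2-fold lower and *Loxl2* higher in old cells, where 11.3% and 12.1% of all genes tested were so. All 5 were also higher in E4 than in E3, and the list median was 0.12. *Col4a1* was at 931, 1689.8, 782 and 1014 CPM in young and 229, 456, 916 and 261 CPM in old samples of runs A1 to A4, and *Col4a2* at 1289, 2033, 811 and 773 and 302, 407, 877 and 379.6 CPM. Both were lower in old cells in runs A1, A2 and A4 and slightly higher in A3, so the samples overlapped. Without run A3 the log2 ratios went from -1.02 and -1.27 to -1.76 and -2.03, and within E4 they were -1.13 and -1.29. For *Loxl2* a single old cell, the one that lacked endothelial markers, gave 87.4% of old counts, and the log2 ratio went from 1.06 to -1.06 without it. Mesenchymal markers were at least 2-fold higher in old cells for 6 of 12, with a median of 1.21 over all cells and -1.48, 3.02, 0.13 and 1.60 in runs A1 to A4. That median was 0.59 without the cell that lacked endothelial markers, 0.47 without all cells set apart, 0.22 without run A2 and 3.82 without run A1. They summed to 3624, 2100.0, 1379 and 3229 CPM in young and 1064, 5424, 2679 and 2289.8 CPM in old samples, and the runs went in different directions. Pericyte and smooth muscle markers had a median of -1.15, which turned to 0.26 without run A2 and to 0.51 without the 6 cells set apart. The old cell without endothelial markers gave most old counts of *Has1*, encoding hyaluronan synthase 1 and named after its values were seen, with a log2 ratio of 3.84 that became 1.45 without that cell, and *Fn1* went from 0.52 to -0.16. Of 12 proliferation genes 6 were at least 2-fold lower in old cells, where 11.3% of all genes tested were so. Their median log2 ratio was -0.61, which turned to 0.11 without the cells set apart and to 0.04 without the top cell of each side. A single young E4 cell of run A3 carried 15 of 16 such markers and gave 90.2% of the young counts of *Mki67*.

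The 8 marrow-sorted cells of E3 and E4 were all old and were set beside 11 old endosteal-sorted cells of run A4, the run of the same range of library numbers. The mix of clusters differed, with 2 E3 and 6 E4 cells against 5 and 6, the cell without endothelial markers among the latter, and its part in genes that differ between the clusters, such as *Cxcl12* and *Cd74*, was not tested. All 8 carried the 4 given markers, and they carried a median of 17 of 24 arterial and 8 of 21 sinusoidal and venous genes, against 18 and 6 in the endosteal cells. *Stab2* was at 7.67 CPM in the marrow-sorted and 6.89 CPM in the endosteal-sorted cells, far under its E7 level. *Gja4* was at 1598 and 272 CPM, or 5.87-fold (5.46 to 6.32) higher in the marrow-sorted cells, and *Cxcl12* was at 8771 and 1891 CPM. Both were detected at 10 CPM or more in all 8 marrow-sorted cells and in 8 of the 11 endosteal ones. *Sparcl1* and *Cd74* were lower, at 24.7 against 1207 CPM and 21.7 against 588 CPM, but few cells carried *Cd74* at 10 CPM or more, 1 of 8 and 2 of 11, while 2 and 9 carried *Sparcl1*. Markers of other cell types were carried by more of the marrow-sorted cells, 5 of 8 against 1 of 11, and their part in these values was not tested.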

How the data were processed

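Single sorted endothelial cells were sequenced in plates, and each GEO sample is 1 cell. The deposited file holds raw read counts per gene and cell, which the authors made by aligning reads to GRCm38.p4 with GSNAP (2015-09-29) and counting with HTSeq, per the submitters' processing notes. Of 46078 table entries, 270 repeating a symbol were summed, and 37 mitochondrial genes stayed out of totals, leaving 45771 genes. A further 354 columns of other sorted cells were not used. None of the 307 cells was left out, doublets were not called, and cells held 71320 to 810982 nuclear counts. Counts were summed per group and scaled to CPM with Python 3.11.15, numpy 2.4.6, pandas 2.3.3 and scipy 1.17.1, by code tested on simulated data, and drawn with matplotlib 3.10.9. Log2 ratios had 1 CPM added. Without named mice no test was made. Intervals were exact at 95% (Poisson, conditional binomial or Clopper-Pearson) and cover counting error only. The members and the 24 gene lists were chosen with earlier results of these data known. Named genes were the 10 largest log2 ratios per direction with 1000 counts or more, 10 CPM or more in 50% of cells of the higher side and 1 direction in every run, with list genes and genes the study names, and 1 gene of this rule is not reported here. Alternatives covered scaling, pseudocount, filter, weights of runs, depth, age, sorts and single cells.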

Additional observations from a re-analysis of the deposited data

How the results depend on the processing

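No paired analysis was possible because the labels name no mouse, and values within each library run are given as descriptions without a test. Under 22 alternative settings, 150 of 164 gene counts stayed within 1.5 times the reported count, and 1865 of 1924 list medians within a wide 95% interval over their genes. Of 3297 ratios of named genes, 1991 fell outside their counting interval. Of 139 such ratios reported past 2-fold, 137 kept their sign and 108 stayed past 2-fold in every setting. Of 33 list medians past 2-fold, 30 kept their sign and only 12 stayed past 2-fold throughout.

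With 10 CPM added in place of 1 CPM, genes higher and lower numbered 1289 and 1000 against E7, 1386 and 940 against E5, 618 and 852 for E3 over E4, and 429 and 435 for old over young. Thinned to 100000 nuclear counts per cell, they numbered 1052 and 1317 for E3 over E4 and 886 and 809 for old over young, where fewer genes held enough counts. With equal weight for each run, 4298 genes were lower against E7, and the immediate early median against E5 was 2.15 (2.21 in young cells only). Without the top cell of each side 848 genes were lower against E5. Leaving out 1 run at a time put the share of E3 and E4 at 48.4% to 71.7% of young and 69.4% to 84.7% of old AEC-sorted cells.

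Among values past 2-fold, directions turned as follows. The NF-kB list against E7 went from 1.09 to -0.21 with equal weight and -0.32 in library range 3 only, and the osteoblast and chondrocyte list from 1.13 to -0.74 with equal weight. For old over young, the pericyte list ran from -1.80 to 0.26 over left-out runs and was 0.51 without the 6 cells set apart. *Dkk2* ran from -2.81 to 0.14 over left-out runs and *Loxl2* from -1.21 to 2.68. *Loxl2* was at -1.17 without cells with 3 or more markers of another type, -1.06 without the cell lacking endothelial markers and -0.99 without the 6 cells. The cause was not tested for any of these. Of values under 2-fold, 39 of 63 list medians and 11 of 22 ratios of named genes changed sign in at least 1 setting. Leaving out single cells set apart, range 3 or 1 age alone for named genes, and left-out runs for E3 or E4 alone were chosen after seeing the data.

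Each group is 1 sample without a named mouse, so no spread between mice is known. Samples hold as few as 3 cells, and single cells set many low values. Intervals cover counting error of reads only, and reads were not counted by molecule. Cluster, sort, compartment and range of library numbers cannot be told apart against E7, nor age and mouse for old over young.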

Other observations

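Of the junction genes, 4 of 15 were at least 2-fold higher in E3 and 1 lower, with a median log2 ratio of 0.22, where 12.2% and 17.7% of all genes tested were higher and lower. Genes given here were picked from their lists after the values were seen. *Cldn5*, the gene of the main claudin of endothelial tight junctions, was at 2094 to 4927 CPM (median 3309.7) over the E3 samples and at 975 to 3221 CPM (median 1923) over the E4 samples, with log2 ratios of 1.92, 0.06, 1.15 and 1.12 in runs A1 to A4. *Ocln*, encoding occludin of the same junctions, was at 0 to 27.4 (median 1.32) against 0 to 0.834 (median 0) CPM, higher in E3 in all 4 runs. In runs A2 and A4 no sample of both clusters together was above 0.759 CPM, so the direction there rests on few counts. *Gja1*, encoding connexin 43, was lower in E3, at 46.3 to 630.4 (median 124) against 354 to 981 (median 471) CPM, but level in run A4 (log2 ratio 0.02). The ranges of E3 and E4 samples overlapped for all 3 genes. By age, *Ocln* was at 0, 0, 1.96 and 0 CPM in young and 8.35, 0.759, 16.6 and 0.299 CPM in old samples of runs A1 to A4.

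In the VEGF and Tie pathway, 3 of 13 genes were at least 2-fold higher in E3 (*Angpt1*, *Vegfa* and *Vegfc*) and 4 lower (*Kdr*, *Nrp2*, *Pgf* and *Vegfb*), beside the same 12.2% and 17.7% of all genes. Of these 7, only *Vegfa*, *Kdr* and *Nrp2* had 1 direction in all 4 runs. *Vegfc* was at 175 to 723 CPM (median 425) in E3 samples and 26.9 to 607 CPM (median 241) in E4 samples, with log2 ratios of 1.48, -0.09, 1.19 and 0.63 by run. *Cd74* and *H2-Ab1*, reported above by age, were also lower in E3 than in E4 (log2 ratios -1.64 and -1.24), but *Cd74* was higher in E3 in run A3 (1.07). Without run A3 the ratios were -3.88 and -1.85, and without the top cell of each side -3.76 and -1.98. Counts of Y-linked genes were present in 53 of 60 E3 and 56 of 59 E4 cells (46 of 50 young and 63 of 69 old), while *Xist*, the RNA of the inactive X chromosome, had 1 count over the 119 cells together.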
